A study of Mus musculus with 31 samples.

Results

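The 9 genes described here encode enzymes that oxidise, hydrolyse or reduce foreign compounds and lipid aldehydes: Cyp2f2, Cyp4b1, Fmo1, Fmo2, Aox3, Aldh1a1, Akr1c14, Ces1g and Pon1. They are described across 31 expression arrays of whole mouse lung, as 9 of the 19938 genes that could be named by a single symbol. The 9 were chosen by name, from measured differences between LPS and saline lungs on these same arrays. Their LPS differences are therefore a description: calls from the fit across all genes are counted, but no p is given for a member and the calls carry no weight as evidence. Each gene was read by 1 probe set, and all 9 passed the filter on dim probe sets, which left 14705 genes for testing. Values are log2 intensities throughout, so a difference of 1 is a doubling. No level is set against that of another gene, because probe sets differ in brightness at equal RNA.

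All mice were male, labelled as 6 weeks of age, and of the inbred strain AKR or C57 BL/6 (C57 from here on). After cigarette smoke or room air, the trachea was instilled with LPS (lipopolysaccharide, a bacterial cell wall endotoxin) dissolved in saline, or with saline only. The titles give these mice 3 weeks of exposure and the series description 6, a conflict that is not settled here. The instilled groups are AKR smoke LPS, AKR air LPS, AKR smoke saline and AKR air saline, and C57 smoke LPS, C57 air LPS, C57 smoke saline and C57 air saline. Each has 3 arrays, except AKR smoke LPS with 2. Mice with neither smoke nor instillation form 3 more groups, titled AKR room air 3 weeks (2 arrays), AKR room air 6 weeks (3) and C57 room air 6 weeks (3). No group had smoke without instillation, and the time between LPS and dissection is not given in the sources used here. Titles call the arrays of a group biological replicates, and the small number of arrays limits the precision of every value.

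The enzymes belong to the machinery that handles inhaled and blood-borne chemicals. Club cells, the secretory cells of the mouse bronchiole, are rich in cytochromes P450, and other lung cells and the liver share many of the remaining enzymes. Oxidation by P450s, flavin-containing monooxygenases and aldehyde oxidases, hydrolysis by esterases, and aldehyde or ketone conversion by dehydrogenases and reductases prepare compounds for conjugation and export. In whole lung, fewer cells of a type and less RNA per cell cannot be told apart.

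Upstream sequence was available for 8 of the 9 genes, in 10 windows of 250 bases before an annotated start (RefSeq, GRCm38.p6, the C57BL/6J reference). It was searched on both strands for 5 motifs: the C/EBP letters TTGCNNAA, the forkhead letters TGTTTAC, the NKX2-1 letters CTCAAG, the XRE core GCGTG of the aryl hydrocarbon receptor, and the antioxidant response element letters TGACNNNGC. The C/EBP letters were found upstream of Pon1, Aldh1a1 and Fmo2, and are shown in capitals below, as windows of genes whose LPS differences were negative in both strains. Ces1g, Aox3 and Cyp2f2 were also negative in both strains, and their windows do not hold these letters. Another Aldh1a1 window does not hold them either. The windows shown were thus picked for the letters, and no link between the letters and the LPS differences was tested. The Akr1c14 window is shown beside them because this gene was higher after LPS in C57, and it holds none of the 5 motifs. This window precedes an internal start, inside the gene's annotated span of 4048991 to 4090560. Sequence before the 5′ end of that span was not searched. Each sequence runs 5′ to 3′ in the direction of its gene and ends at the base before the start.
Pon1 promoter, chr6:5193947-5194196, minus strand: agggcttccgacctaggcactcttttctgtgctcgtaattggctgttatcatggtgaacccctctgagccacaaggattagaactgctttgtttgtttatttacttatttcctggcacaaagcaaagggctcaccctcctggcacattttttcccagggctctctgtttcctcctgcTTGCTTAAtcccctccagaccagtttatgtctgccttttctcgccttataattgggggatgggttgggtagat
Aldh1a1 promoter, chr19:20492333-20492582, plus strand: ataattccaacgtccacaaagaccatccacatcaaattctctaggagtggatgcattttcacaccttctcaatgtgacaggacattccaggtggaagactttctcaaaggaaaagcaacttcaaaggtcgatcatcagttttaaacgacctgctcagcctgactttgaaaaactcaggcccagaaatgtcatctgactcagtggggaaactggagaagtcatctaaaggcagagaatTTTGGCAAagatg
Fmo2 promoter, chr1:162898759-162899008, minus strand: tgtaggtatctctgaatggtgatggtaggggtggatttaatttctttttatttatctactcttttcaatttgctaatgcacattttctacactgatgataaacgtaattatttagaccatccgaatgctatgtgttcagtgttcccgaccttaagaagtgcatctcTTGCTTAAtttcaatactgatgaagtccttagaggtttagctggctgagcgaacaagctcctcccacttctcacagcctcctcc
Akr1c14 promoter, chr13:4059341-4059590, plus strand: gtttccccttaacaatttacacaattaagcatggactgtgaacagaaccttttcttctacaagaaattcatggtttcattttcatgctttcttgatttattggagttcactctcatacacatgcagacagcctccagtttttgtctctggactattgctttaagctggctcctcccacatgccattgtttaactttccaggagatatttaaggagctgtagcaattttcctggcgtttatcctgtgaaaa
The capitals lie 73 bases before the start in Pon1, 13 in Aldh1a1 (on the opposite strand) and 84 in Fmo2. Of all 32851 windows of this length, 9.56% hold these letters. A second Fmo2 window holds them 69 bases before its start, together with the forkhead letters 28 bases before it (3.17% of all windows). Aox3 holds the XRE core 125 bases before its start, as do 28.2% of windows. The NKX2-1 letters (13.3% of windows) and the antioxidant response letters (10.2%) were in none of the 10. A match is a stretch of letters and was not tested as a binding site, and the windows without one say nothing about these factors.

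Before the results, 2 arrays have to be set apart. Saa3, an acute-phase gene that LPS strongly induces, read 6.06 on the array labelled C57 smoke LPS 3 and 12.47 on the array labelled C57 smoke saline 3. The other C57 smoke LPS arrays read 12.64 and 12.85, and the other C57 smoke saline arrays 6.1 and 6.36. Across the other 10 LPS arrays of both strains Saa3 lay between 12.24 and 12.85. Cxcl2, a neutrophil chemokine, went the same way, at 5.21 on the array labelled C57 smoke LPS 3 and 11.11 on the array labelled C57 smoke saline 3. The array labelled C57 smoke LPS 3 also read 13.27 for Alb (albumin), which lay between 4.95 and 6.92 on the other 30 arrays. The mean of 6 hepatocyte markers was 10.93 on it and between 5.6 and 6.35 elsewhere. Ces1g, which liver also makes, read 8.93 there, the highest of the 31 arrays. The part of the liver signal in this value, and in those of Pon1, Aox3 and the other members on this array, was not tested. Values for the 9 genes with smoke in C57 are therefore given with all arrays and without this pair. Saa3 was also raised, at 8.09, 8.65 and 8.26, on the AKR smoke saline arrays, and at 8.95 on AKR air saline 3, whereas AKR air saline 1 and 2 read 6.22 and 6.38.

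The arrays form 2 sets by their distributions. One set of 18, all C57 arrays and AKR room air 6 weeks, had medians from 6.96 to 7.1, and the other 13, all remaining AKR arrays, had medians from 6.8 to 6.9. Whether each set was normalized on its own is not stated. The strain test below lies within the first set. For LPS and saline lungs, strain and array set cannot be told apart, which touches the strain by LPS differences given for Cyp4b1 and Akr1c14, though each strain's own difference lies within 1 set.

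After air, LPS lungs of both strains had lower levels of Pon1, Ces1g, Aox3, Aldh1a1 and Cyp2f2 than saline lungs. Among these, Pon1, Aox3 and Ces1g had the largest differences, and their LPS values were between 27.4% and 37.5% of the saline values. Fmo2 and Cyp4b1 had LPS arrays below all saline arrays in AKR and overlapping groups in C57. Fmo1 overlapped in both strains, and Akr1c14 was higher with LPS in C57 and had a negative difference in AKR. The description of the group as lost after LPS thus goes against the data for Akr1c14 in C57, and Fmo1 was not called lower than saline in either strain. In C57, 5 of the 9 were called lower (adjusted p under 0.05 in the limma fit), where 4.3% of all genes were, and 1 was called higher, where 11.5% were. The count of 5 fell to 2 without C57 air LPS 1 or without C57 air saline 1, and to 3 without C57 air saline 3. All genes called there, in either direction, numbered 2316, and 1121 to 3141 when single arrays were left out. In AKR, 7 of the 9 were called lower, where 7.41% of all genes were, and none higher, where 9.45% were. With AKR room air 3 weeks in place of saline, the comparison joins instillation and LPS. In it Pon1 (-0.88 ± 0.41), Cyp2f2 (-0.46 ± 0.18) and Aldh1a1 (-0.46 ± 0.19) were not called with all arrays, whereas Fmo1 was. More of the 9 were called there without the doubted pair. The share of all genes called in it is not given. At an unadjusted p under 0.05 it gave 8 members and 4406 genes, and 9 members and 4812 genes without the pair. These counts follow from the choice of the genes, and nothing is read from them. The median difference of the 9 was -0.55 in C57 and -0.73 in AKR, beside -0.0067 and -0.04 over all genes tested.

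**Figure D1:**
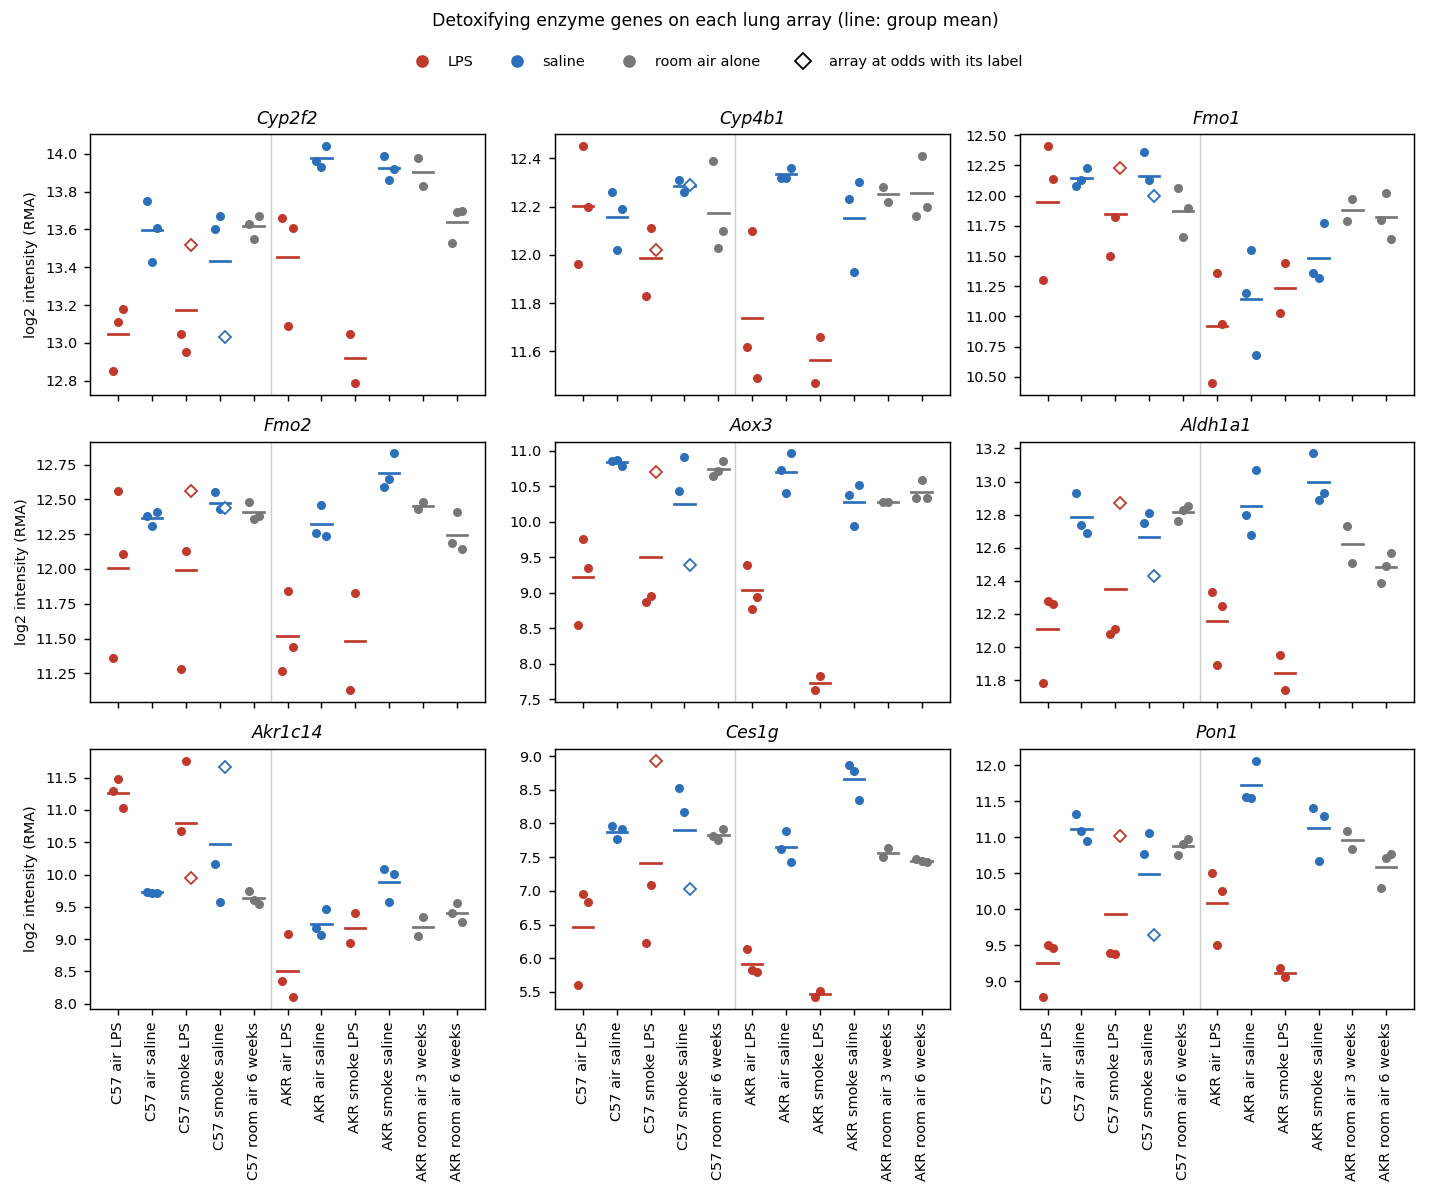
Log2 intensity of the 9 enzyme genes on each of 31 lung arrays, by group, with C57 groups left of AKR groups and a line at each group mean. Open diamonds are the 2 C57 arrays whose Saa3 goes against their labels. Pon1 is at or below 9.51 on the 3 C57 air LPS arrays and at or above 10.95 on the 3 C57 air saline arrays.

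The hydrolases come first. Pon1, paraoxonase 1, is an esterase that cleaves lactones and organophosphate oxons and is best known as a liver product carried on high-density lipoprotein. It read 8.78, 9.51 and 9.47 on the C57 air LPS arrays, against 11.32, 11.09 and 10.95 on the C57 air saline arrays. In AKR it read 10.5, 9.5 and 10.25 with LPS after air, against 11.56, 11.54 and 12.06 with saline. The groups did not overlap in either strain, and the log2 difference was -1.87 ± 0.36 (standard error of the fit, here and below) in C57 and -1.64 ± 0.36 in AKR. Pon1 ranked 7 from the lowest difference among 14705 genes in C57 and 8 in AKR. Against AKR room air 3 weeks, which read 11.08 and 10.84, the AKR difference was -0.88 ± 0.41.

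Ces1g is a carboxylesterase of the Ces1 cluster, which hydrolyses esters and lipids. It read 5.61, 6.95 and 6.84 on the C57 air LPS arrays, against 7.96, 7.77 and 7.91 on the C57 air saline arrays. The AKR air LPS arrays read 6.13, 5.83 and 5.79, against 7.62, 7.89 and 7.43 with saline. No LPS array reached the lowest saline array, and the differences were -1.41 ± 0.43 in C57 and -1.73 ± 0.43 in AKR. Ces1g lay above the 40th percentile of the array on 24 of 31 arrays, and the other 7 were all LPS arrays. Its LPS differences therefore rest in part on dim values and may understate the change. Probe sets of near-identical Ces1 genes can share signal.

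Among the oxidases, Aox3 (aldehyde oxidase 3, which oxidises aldehydes and nitrogen heterocycles) gave 8.54, 9.76 and 9.35 on C57 air LPS arrays, against 10.85, 10.87 and 10.79 on C57 air saline arrays. AKR air LPS arrays gave 9.39, 8.77 and 8.94, against 10.73, 10.4 and 10.96 with saline. The ranges were apart in both strains, with differences of -1.62 ± 0.37 in C57 and -1.66 ± 0.37 in AKR. Its relative Aox1, an aldehyde oxidase of broader tissue range, fell by 0.93 ± 0.22 in C57 (limma adjusted p = 0.0078) and by 0.83 ± 0.22 in AKR (adjusted p = 0.01). Xdh, the xanthine dehydrogenase of the same enzyme family, rose by 0.97 ± 0.23 in C57 (adjusted p = 0.0086) and by 1.38 ± 0.23 in AKR (adjusted p = 0.00035).

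Cyp2f2 is the club cell P450 that activates naphthalene in the mouse. It read 12.85, 13.11 and 13.18 in C57 air LPS lungs, against 13.75, 13.43 and 13.61 in C57 air saline lungs. The AKR air LPS lungs read 13.66, 13.09 and 13.61, against 13.96, 13.93 and 14.04 with saline. The groups were apart in both strains, by -0.55 ± 0.16 in C57 and -0.53 ± 0.16 in AKR. Cyp2f2 lies at or above the 99.5 percentile of every array, and whether so bright a probe set follows RNA amounts in proportion was not tested.

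Cyp4b1, a P450 of lung that hydroxylates fatty acids and activates several plant and aromatic toxicants, had groups apart in AKR and not in C57. It read 11.96, 12.45 and 12.2 with LPS, against 12.26, 12.02 and 12.19 with saline, in C57 after air. In AKR it read 11.62, 12.1 and 11.49 with LPS, against 12.32, 12.32 and 12.36 with saline. The C57 groups overlapped (0.049 ± 0.14), and the AKR groups did not (-0.6 ± 0.14). The LPS difference in AKR minus that in C57 was -0.65 ± 0.2.

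The flavin-containing monooxygenases oxidise nitrogen and sulphur in drugs and toxicants, and Fmo1 and Fmo2 are neighbouring genes. Fmo2, the main lung form in mouse, read 11.36, 12.56 and 12.11 in C57 air LPS lungs, against 12.38, 12.31 and 12.41 in C57 air saline lungs. In AKR it read 11.27, 11.84 and 11.44 with LPS, against 12.26, 12.46 and 12.24 with saline. One C57 LPS array lay above all saline arrays of its strain, while the AKR groups were apart, and the differences were -0.36 ± 0.25 in C57 and -0.81 ± 0.25 in AKR. Fmo1 read 11.3, 12.41 and 12.14 with LPS in C57, against 12.08, 12.13 and 12.23 with saline. Its AKR values were 10.45, 11.36 and 10.94 with LPS, against 11.19, 11.55 and 10.68 with saline. Both pairs overlapped, with differences of -0.2 ± 0.25 in C57 and -0.23 ± 0.25 in AKR. Against AKR room air 3 weeks, which read 11.79 and 11.97, Fmo1 in AKR air LPS lungs differed by -0.96 ± 0.28, with no overlap. That comparison joins instillation and LPS, and AKR air saline lungs differed from the same room air lungs by -0.74.

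Aldh1a1, which oxidises retinaldehyde to retinoic acid and clears lipid aldehydes, read 11.78, 12.28 and 12.26 in C57 air LPS lungs, against 12.93, 12.74 and 12.69 in C57 air saline lungs. AKR air LPS lungs read 12.33, 11.89 and 12.25, against 12.8, 12.68 and 13.07 with saline. All LPS arrays were below all saline arrays in each strain, and the differences were nearly equal, at -0.68 ± 0.17 in C57 and -0.7 ± 0.17 in AKR. Its close copy Aldh1a7 fell by 0.78 ± 0.26 in C57 (limma adjusted p = 0.046) and by 0.79 ± 0.26 in AKR (adjusted p = 0.04), and the 2 genes are similar enough for their probe sets to share signal.

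Akr1c14, the mouse 3α-hydroxysteroid dehydrogenase of the aldo-keto reductases, differed in direction between strains. It read 11.29, 11.47 and 11.03 in C57 air LPS lungs, against 9.73, 9.72 and 9.72 in C57 air saline lungs. In AKR it read 8.35, 9.08 and 8.1 with LPS, against 9.18, 9.07 and 9.47 with saline. The C57 LPS lungs were all above the saline lungs, by 1.54 ± 0.38, or 2.91-fold, whereas in AKR the groups overlapped at 1 array and the difference was -0.73 ± 0.38. In room air at 6 weeks the strains were close, at 9.4, 9.56 and 9.27 in AKR and 9.74, 9.61 and 9.55 in C57. The related Akr1c19 was not called after air in either strain (-0.4 ± 0.28 in C57 and -0.37 ± 0.28 in AKR).

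After smoke in AKR, 7 of the 9 were called lower with LPS than with saline, where 14.6% of all genes were, and none was called higher, where 16.9% were. The LPS difference after smoke minus that after air was -1.46 ± 0.65 for Ces1g, -0.89 ± 0.56 for Aox3, -0.47 ± 0.24 for Cyp2f2 and -0.46 ± 0.26 for Aldh1a1. It was -0.4 for Fmo2, -0.37 for Pon1, -0.02 for Fmo1, 0.0077 for Cyp4b1 and 0.012 for Akr1c14. None of these 9 changes with smoke passed the threshold. Of all genes tested, 0 passed it too (17 without the doubted pair), so the lack of calls says nothing particular to the 9. Ces1g read 5.42 and 5.52 in AKR smoke LPS lungs, against 8.86, 8.78 and 8.35 in AKR smoke saline lungs. Its fitted difference was -3.19 ± 0.48, with both LPS values in the dim range of their arrays (percentiles 27.2 and 28.1), so its size and rank are not exact. Aox3 read 7.63 and 7.83, against 10.38, 9.94 and 10.52, a difference of -2.55 ± 0.41. Pon1 read 9.18 and 9.06, against 11.4, 10.67 and 11.3, a difference of -2 ± 0.41. These 3 genes had no overlap between LPS and saline lungs, and neither did Aldh1a1, Cyp2f2, Fmo2, Cyp4b1 and Akr1c14. Groups of 2 and 3 arrays can lie apart without a true difference. The share of all genes without overlap is not given for this or any other comparison, so a lack of overlap is a description only.

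Of the remaining 6 genes after smoke in AKR, Aldh1a1 read 11.95 and 11.74 with LPS, against 13.17, 12.89 and 12.93 with saline (-1.15 ± 0.19). Cyp2f2 read 13.05 and 12.79 with LPS, against 13.99, 13.86 and 13.92 (-1 ± 0.18). Fmo2 read 11.13 and 11.83 with LPS, against 12.59, 12.65 and 12.83 (-1.21 ± 0.28). These showed LPS lungs at between 43.2% and 50% of saline lungs. Cyp4b1 read 11.47 and 11.66 with LPS, against 12.23, 11.93 and 12.3 (-0.59 ± 0.16). Akr1c14 read 8.94 and 9.4 with LPS, against 10.09, 9.57 and 10.01 (-0.72 ± 0.43). Fmo1 again overlapped, at 11.03 and 11.44 with LPS and 11.36, 11.32 and 11.77 with saline (-0.25 ± 0.28).

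After smoke in C57, the values depend on the pair of doubted arrays. With all arrays, 0 of 9 members and 0% of all genes were called lower by limma, and 0% higher, although 1300 genes and 1 member had an unadjusted p under 0.05. Without the pair, 6 of 9 were called lower, where 9.79% of all genes were, and 1 higher, where 10.9% were. Pon1 read 9.39, 9.38 and, on the doubted array, 11.02 with LPS, against 10.77, 11.06 and, on the doubted array, 9.64 with saline. Its difference was -0.56 ± 0.36 with all arrays and -1.53 ± 0.28 without the pair. Ces1g read 6.23, 7.08 and 8.93 with LPS, against 8.52, 8.17 and 7.02 with saline, the doubted arrays last (-0.49 ± 0.43 and, without the pair, -1.69 ± 0.3). On Pon1 each doubted array lies nearer the lungs of the opposite label. On Ces1g the doubted saline array lies among the LPS lungs, and the doubted LPS array lies above the other saline lungs. The latter array is the one with the liver signal.

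Aox3 went as Pon1 did, with 8.87, 8.95 and 10.7 with LPS, against 10.43, 10.91 and 9.39 with saline, the doubted arrays last. Its difference was -0.74 ± 0.37 with all arrays and -1.76 ± 0.27 without the pair. Akr1c14 mirrored Aox3, with 10.68, 11.76 and 9.95 with LPS, against 10.17, 9.57 and 11.67 with saline (0.33 ± 0.38, and 1.35 ± 0.3 without the pair). Akr1c14 was thus above saline after smoke as after air in C57 when the pair is left out. Cyp2f2 differed by -0.26 ± 0.16 with all arrays and -0.64 ± 0.15 without the pair. Aldh1a1 differed by -0.31 ± 0.17 and, without the pair, -0.69 ± 0.16, and Fmo2 by -0.48 ± 0.25 and, without the pair, -0.79 ± 0.28. Fmo1 (-0.31 ± 0.25 and, without the pair, -0.58 ± 0.3) and Cyp4b1 (-0.3 ± 0.14 and, without the pair, -0.31 ± 0.18) were called in neither fit. With the pair left out of the shared fit, 5 of 9 were called lower after air in C57 (7.67% of all genes, with 15.2% higher), 8 after air in AKR (10.8%, with 11.8% higher) and 8 after smoke in AKR (16.4%, with 18.6% higher). Akr1c14 was the added call in AKR both times.

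**Figure D2:**
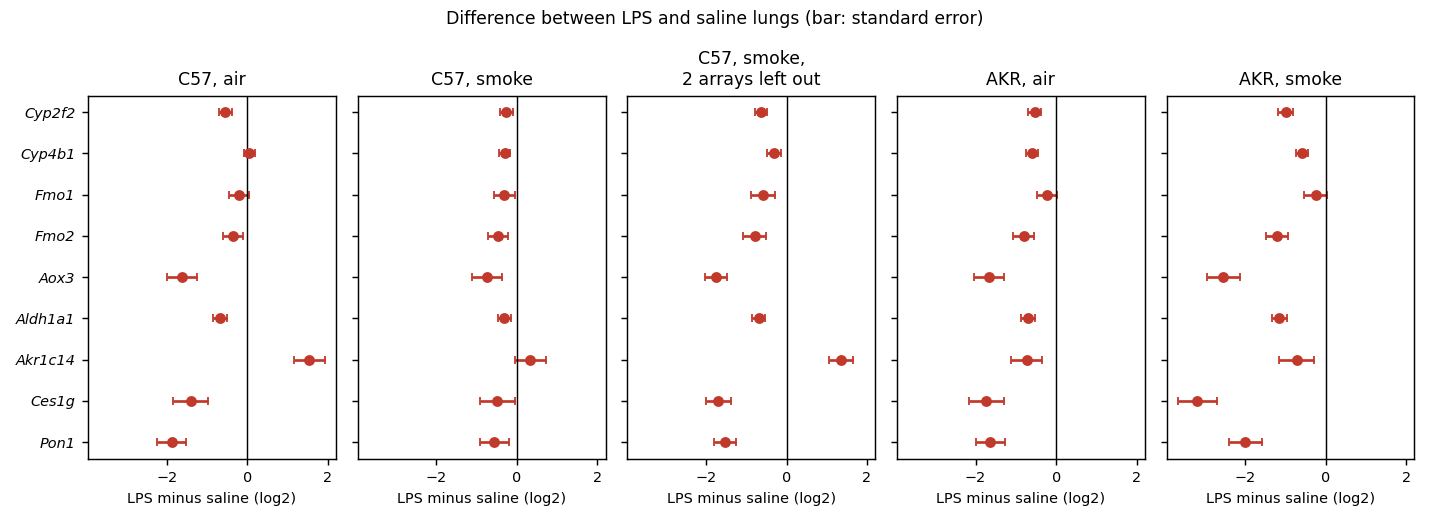
Log2 difference between LPS and saline lungs for the 9 genes, with bars for 1 standard error, after air and after smoke in C57 and AKR; the middle panel leaves out the 2 doubted C57 arrays. Akr1c14 lies right of 0 in C57 and left of 0 in AKR, and Ces1g in AKR after smoke lies at -3.19, against LPS values in the dim range of their arrays.

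**Figure D3:**
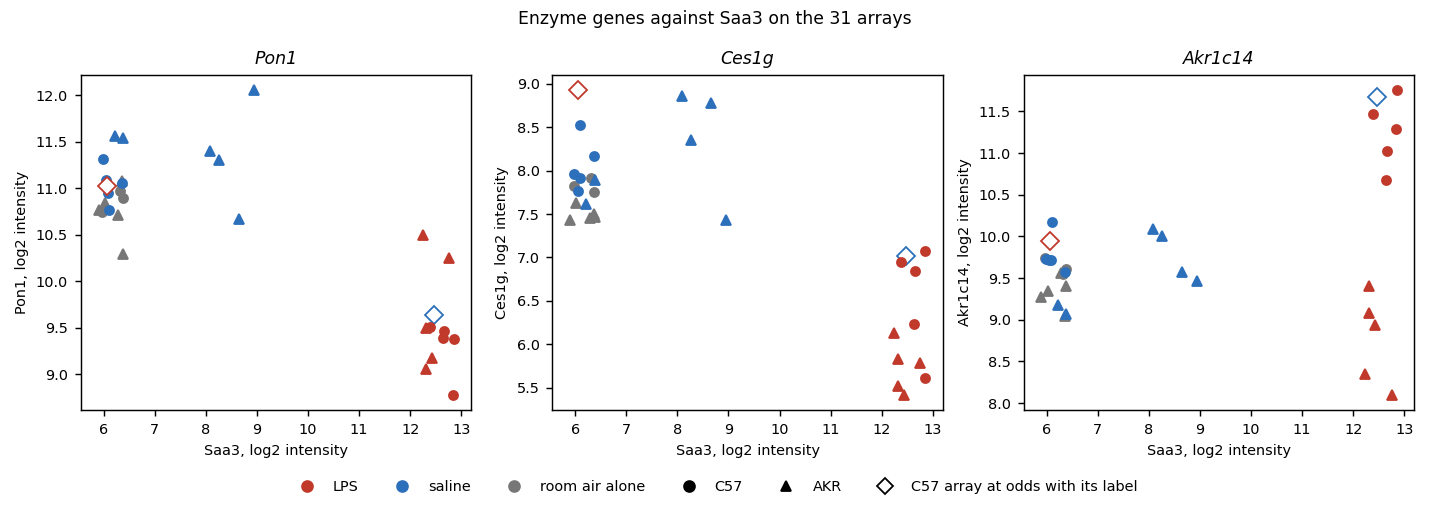
Pon1, Ces1g and Akr1c14 against Saa3 on the 31 arrays, in log2 intensity, with circles for C57, triangles for AKR and diamonds for the doubted C57 arrays. The diamond labelled saline has Saa3 at 12.47 and lies among LPS lungs, and the diamond labelled LPS has Saa3 at 6.06 and lies away from the LPS lungs, with the highest Ces1g of all, at 8.93.

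With LPS, smoke against air gave differences in AKR of -1.31 ± 0.41 for Aox3, -0.96 ± 0.41 for Pon1, -0.53 ± 0.18 for Cyp2f2 and -0.45 ± 0.48 for Ces1g. Akr1c14 went the other way, at 0.66 ± 0.43. The mean of 7 neutrophil markers was 10.48 and 10.57 in AKR smoke LPS lungs, overlapping the 9.97 to 10.55 of AKR air LPS lungs. Macrophage and monocyte markers averaged 9.45 and 9.5 in AKR smoke LPS lungs, above the 8.63 to 9.11 of AKR air LPS lungs, and ciliated cell markers 8.01 and 8.33, below the 8.38 to 9.32 of AKR air LPS lungs. Club cell markers averaged 9.25 and 9.9, overlapping the 8.84 to 10.29 of AKR air LPS lungs. The means of fibroblast, endothelial and alveolar type 1 and type 2 markers overlapped too. The part of any of these cell markers in the enzyme differences was not tested. In C57 the smoke differences with LPS lay between -0.47 and 0.94 over the 9 genes with all arrays (Ces1g 0.94, Pon1 0.68), and between -0.31 and 0.19 without the pair.

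Comparisons without LPS did not choose the genes, although their saline arrays were part of the contrasts that did. Across 5 such comparisons, 0 of the 9 genes passed an adjusted p of 0.05 in the limma fit with all arrays. The background was 0% of genes for smoke against air with saline in C57 and 0.034% in AKR, 0.0136% for saline against room air alone in C57 and 0.687% in AKR, and 2.69% for AKR against C57 in room air. Without the doubted pair, 0 of 9 passed again in each, beside 0%, 0.333%, 0.109%, 2.22% and 3.69% of genes in the same order. At an unadjusted p under 0.05, smoke in AKR gave 1 member and 944 genes, and saline in AKR gave 1 member and 2701 genes. Smoke in C57 gave 0 members and 906 genes, saline in C57 0 and 907, and AKR against C57 0 and 1723.

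Ces1g came closest to a smoke difference. In AKR smoke saline lungs it read 8.86, 8.78 and 8.35, above the 7.62, 7.89 and 7.43 of AKR air saline lungs, a difference of 1.01 (95% interval 0.12 to 1.91, limma adjusted p = 0.7, and 0.089 without the doubted pair). Akr1c14 differed by 0.65 (interval -0.14 to 1.44) and Pon1 by -0.6 (-1.35 to 0.16) in the same comparison, each without overlap of the groups. These are the lungs in which Saa3 was raised, and the part of that in the differences was not tested. In C57, Ces1g differed by 0.021 with all arrays (-0.87 to 0.92) and 0.46 without the pair (-0.11 to 1.03), and Akr1c14 by 0.75 with all arrays (-0.047 to 1.54) and 0.15 without the pair (-0.41 to 0.7). For Cyp2f2 the interval of the smoke difference was -0.39 to 0.28 in AKR, and in C57 -0.49 to 0.17 with all arrays and -0.24 to 0.32 without the pair.

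Saline against room air alone gave the widest differences for Pon1 and Fmo1. In AKR, Pon1 read 11.56, 11.54 and 12.06 with saline, against 11.08 and 10.84 in AKR room air 3 weeks, a difference of 0.76 (-0.084 to 1.6, adjusted p = 0.32). Fmo1 read 11.19, 11.55 and 10.68 with saline, against 11.79 and 11.97, a difference of -0.74 (-1.32 to -0.15, adjusted p = 0.18). Neither pair overlapped, and neither passed the threshold. In C57 the 9 differences lay between -0.036 and 0.27, in a comparison whose titles give 3 weeks of exposure with saline and 6 weeks in room air.

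In room air at 6 weeks, AKR lungs differed from C57 lungs by between -0.38 and 0.082 over the 9 genes, with a smallest adjusted p of 0.5. Aldh1a1 read 12.39, 12.49 and 12.57 in AKR, against 12.76, 12.83 and 12.85 in C57, groups that did not overlap (-0.33, interval -0.69 to 0.032). Akr1c14 differed by -0.22 (-1.01 to 0.57), and Cyp2f2 by 0.024 (-0.31 to 0.36).

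**Figure D4:**
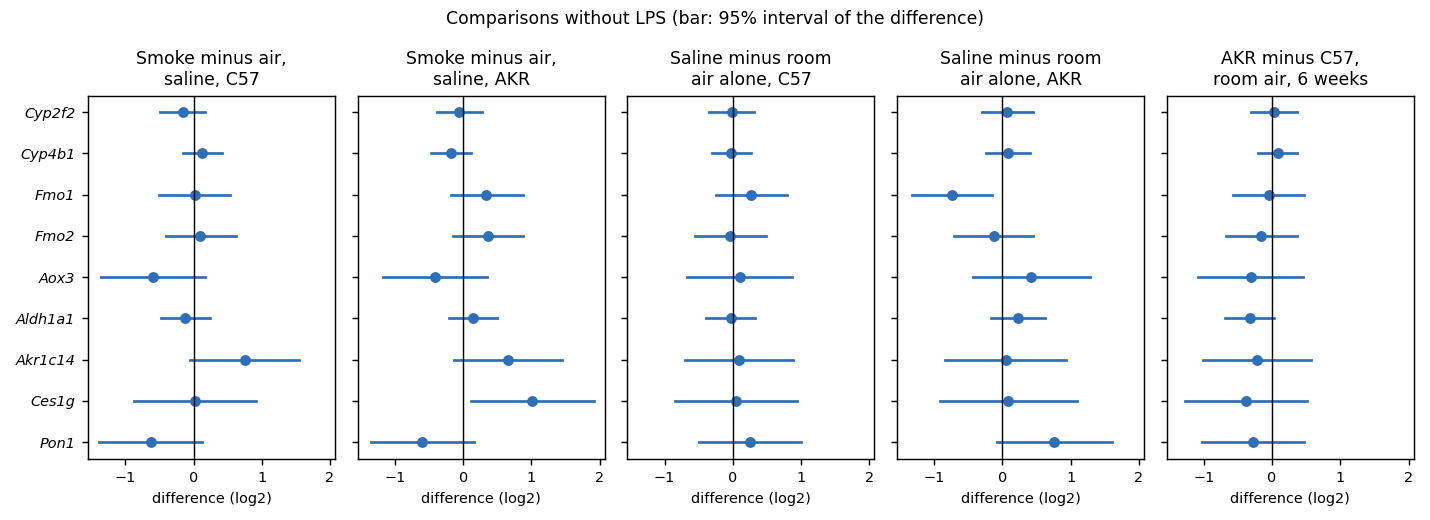
Log2 difference of the 9 genes in the 5 comparisons without LPS, with all arrays, with bars for the 95% interval from the limma fit. Ces1g with smoke in AKR lies at 1.01 and Fmo1 with saline in AKR at -0.74, and no difference passed the threshold after adjustment over all genes.

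Ordered by group mean, the 4 LPS groups were the lowest for Pon1, Ces1g, Aox3, Aldh1a1 and Fmo2. Pon1 was lowest in AKR smoke LPS (9.12, SD 0.084) and highest in AKR air saline (11.72, SD 0.29), which alone was separated from its neighbour, C57 air saline (11.12, SD 0.18). Ces1g was lowest in AKR smoke LPS (5.47, SD 0.07) and highest in AKR smoke saline (8.66, SD 0.27). Aox3 was lowest in AKR smoke LPS (7.73, SD 0.14) and highest in C57 air saline (10.84, SD 0.043). For these 2 genes, AKR smoke LPS was apart from the next group, AKR air LPS, and of the other 9 neighbouring pairs the 2 AKR room air groups alone were apart. Cyp2f2 was lowest in AKR smoke LPS (12.92, SD 0.19) and highest in AKR air saline (13.98, SD 0.055). Aldh1a1 was lowest in AKR smoke LPS (11.84, SD 0.15) and highest in AKR smoke saline (13, SD 0.15), with 0 of 10 neighbouring pairs separated. Fmo2 was also lowest in AKR smoke LPS (11.48, SD 0.49) and highest in AKR smoke saline (12.69, SD 0.12). Cyp4b1 was lowest in AKR smoke LPS (11.56, SD 0.13) and highest in AKR air saline (12.33, SD 0.026).

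Fmo1 and Akr1c14 had another order. Fmo1 was lowest in AKR air LPS (10.91, SD 0.46), with AKR air saline next (11.14, SD 0.44), and highest in C57 smoke saline (12.16, SD 0.18). Akr1c14 was highest in C57 air LPS (11.26, SD 0.22) and lowest in AKR air LPS (8.51, SD 0.51). For neither did any of the 10 neighbouring pairs separate beyond their spread, and levels across the 2 array sets carry that difference between sets.

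The other genes of the same enzyme families were also counted: 179 were named and 97 tested, from the P450 families 1 to 4, monooxygenases, esterases, dehydrogenases, reductases, epoxide hydrolases and glutathione, sulfate and quinone enzymes. After air, 17 fell and 3 rose in C57, or 17.5% and 3.09% of those tested (27 and 4 without the doubted pair), and 29 fell and 2 rose in AKR, or 29.9% and 2.06%. Over all genes 4.3% were lower and 11.5% higher in C57, and 7.41% and 9.45% in AKR. After smoke in AKR, 50 fell and 4 rose, or 51.5% and 4.12%, beside 14.6% and 16.9% of all genes, and in C57 none passed with all arrays, while 28 fell and 4 rose without the doubted pair. The median difference was -0.22 in C57 and -0.37 in AKR after air. Of the glutathione S-transferases, which conjugate electrophiles, 5 of 21 fell in C57 and 14 of 21 in AKR after air. Of the other carboxylesterases, 5 of 8 fell in C57 and 4 of 8 in AKR. These counts stand beside the same 4.3% and 7.41% of all genes.

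Among these other genes, Ces1f, a further Ces1 esterase, had a mean of 5.97 in C57 air LPS lungs and 7.9 in C57 air saline lungs (-1.93 ± 0.48, limma adjusted p = 0.011). In AKR it fell by 1.54 ± 0.48 (adjusted p = 0.031). Its LPS values after air were below the 40th percentile of their arrays in both strains, so these sizes may understate the change. Ephx1, the microsomal epoxide hydrolase, fell by 1.07 ± 0.34 in C57 (adjusted p = 0.035) and by 1.22 ± 0.34 in AKR (adjusted p = 0.016). Cyp4f15, a fatty acid P450, fell by 1.15 ± 0.33 in C57 and by 1.41 ± 0.33 in AKR, and Ces1e by 1.04 ± 0.32 and 1.27 ± 0.32 in the same order of strains. Ces1e read 5.88 to 6.51 on C57 air LPS arrays, whose 40th percentiles were 6.33 to 6.48. On AKR air LPS arrays it read 5.99 to 6.39, beside 6.24 to 6.27. The sizes for Ces1e may thus understate the change too. Falls past the threshold also included Adh7 (alcohol dehydrogenase, -1.18 ± 0.39) and Ces2g (-0.94 ± 0.28) in C57, and Ces1d (-1.02 ± 0.22) and Gsta3 (-1.02 ± 0.19) in AKR. Cyp4f18, a P450 of neutrophils that hydroxylates leukotriene B4, rose by 0.93 ± 0.31 in C57 and by 1.54 ± 0.31 in AKR. Aldh18a1, of proline synthesis, rose by 0.91 ± 0.19 in C57.

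The nearest relatives of Pon1 had smaller differences. Pon3 differed by -0.22 ± 0.12 in C57 and -0.28 ± 0.12 in AKR after air, and Pon2 by -0.13 ± 0.1 and -0.26 ± 0.1, none past the threshold with all arrays. After smoke in AKR, Pon3 fell by 0.7 ± 0.13 (limma adjusted p = 0.00048) and Pon2 by 0.32 ± 0.11 (adjusted p = 0.034). The monooxygenases Fmo4 (-0.14 ± 0.22 in C57, -0.23 ± 0.22 in AKR) and Fmo5 (-0.44 ± 0.28, -0.47 ± 0.28) did not pass after air.

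**Figure D5:**
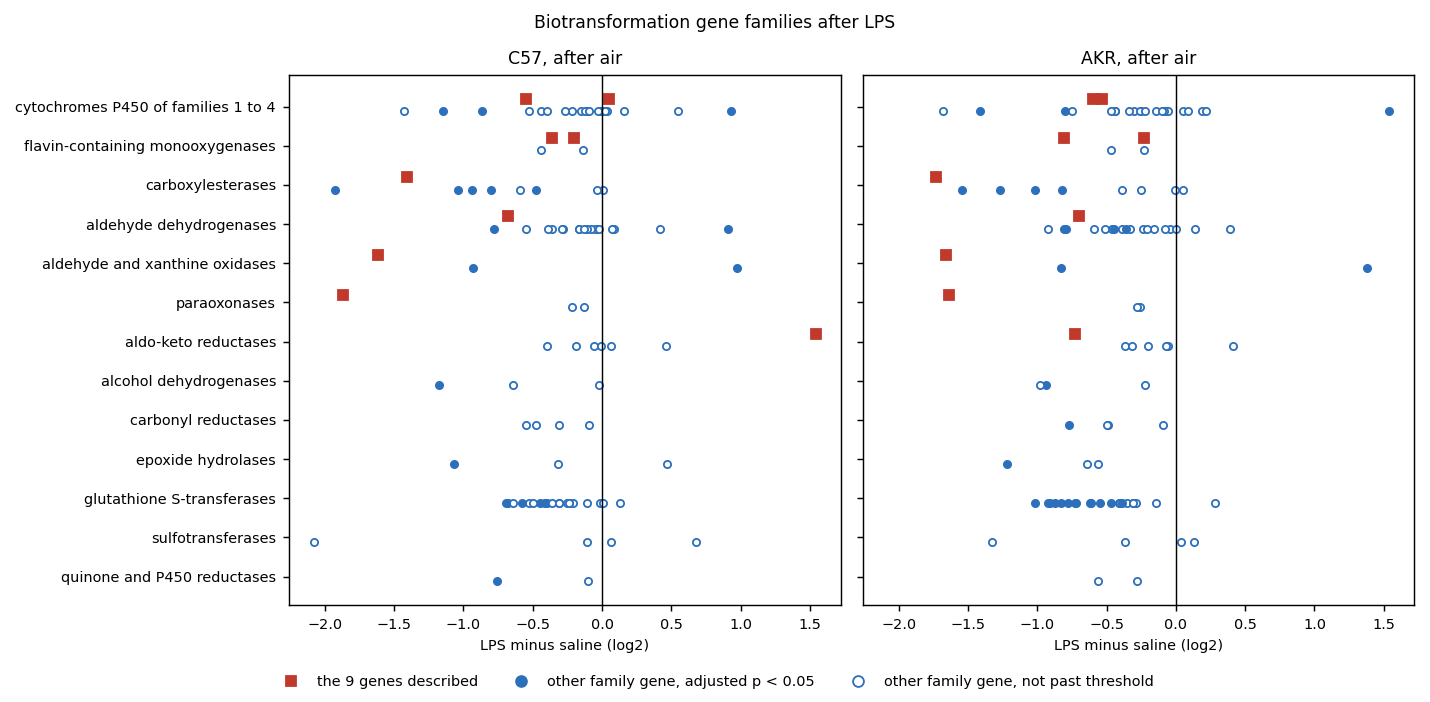
Log2 difference between LPS and saline lungs after air, C57 left and AKR right, for the 9 genes (red squares) and 97 other tested genes of 13 enzyme families (circles, filled where the limma adjusted p is under 0.05). Circles lie mostly left of 0 among carboxylesterases and glutathione S-transferases, and filled circles right of 0 include Xdh and Cyp4f18.

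Markers of lung cells were read on the same arrays, where 4.3% of all genes were lower after air in C57, 7.41% in AKR and 14.6% in AKR after smoke. Scgb1a1, the defining secretoglobin of club cells, lay between 13.1 and 13.79 on all 31 arrays. Array maxima were 13.74 to 13.96 in the set of 18 arrays and 14.12 to 14.54 in the set of 13. Whether so bright a probe set follows RNA amounts in proportion was not tested. Scgb1a1 differed by -0.18 ± 0.11 in C57 and -0.092 ± 0.11 in AKR after air, and by -0.41 ± 0.13 in AKR after smoke (limma adjusted p = 0.017). Of 8 club cell markers, 1 was lower after air in each strain, Scgb3a2 (-1.29 ± 0.4 in C57 and -1.27 ± 0.4 in AKR), and 4 were lower in AKR after smoke. The mean of the 8 was 8.65 to 9.98 in C57 air LPS lungs and 9.69 to 10.31 in C57 air saline lungs. Of 8 ciliated cell markers, 0 were lower after air in C57, 1 in AKR, and 8 in AKR after smoke. Their median differences were -0.56, -0.55 and -1.36 in the same order. Their mean was 8.31 to 8.61 in C57 air LPS lungs, below the 8.88 to 9.08 of C57 air saline lungs. In AKR after air it was 8.38 to 9.32 with LPS and 9.17 to 10.1 with saline. Of 8 fibroblast markers, 0 were lower after air in C57 and 3 in AKR (median differences -0.19 and -0.55). Of 7 alveolar type 2 markers, 1 and 2 were lower in the same order, with 1 higher in AKR (median differences -0.056 and 0.074). After smoke in AKR, 1 alveolar type 2 marker was lower and 3 were higher (median difference 0.28), and 3 fibroblast markers were lower and 1 higher. Of 7 endothelial markers 1 was lower in C57 after air and 0 in AKR, and of 6 alveolar type 1 and 4 adipocyte markers none passed in either strain after air. After smoke in C57 none of these markers passed with all arrays. Without the doubted pair, 5 of 8 fibroblast markers were lower there (median difference -0.66), where 9.79% of all genes were. In that fit 1 club cell, 1 ciliated cell, 2 alveolar type 2, 2 endothelial and 1 alveolar type 1 marker were lower, and none was higher.

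Of 7 neutrophil markers, 7 rose in AKR after air, where 9.45% of all genes did, and 1 in C57, where 11.5% of all genes did (7 without the doubted pair, beside 15.2%). Their means were 9.92 to 10.12 in C57 air LPS lungs and 7.83 to 8.69 in C57 air saline lungs. In AKR they were 9.97 to 10.55 with LPS and 6.94 to 7.22 with saline. Of 5 macrophage and monocyte markers, 3 rose in C57 and 4 in AKR. The 6 heart muscle markers had median differences of -1.05 in C57 and -0.79 in AKR, none past the threshold with all arrays. None of 4 hepatocyte markers tested passed in any LPS comparison with all arrays, and Alb lay at or below 6.92 on every array except the doubted LPS one. The part of these markers in the enzyme differences was not tested.

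By correlation with the mean standardized profile of the 9 genes over 31 arrays, after each array set was centred, the 8 most alike genes were Aldh2, Ces1d, Maob, Sec14l3, Aldh6a1, Fzd8, Cat and Dyrk1b, with r from 0.93 to 0.959. The arrays share the large difference between LPS and other lungs, so these correlations describe that split. Without centring, 4 of the 8 stayed among the 8 most alike, and without the doubted pair 7 did. Aldh2, the mitochondrial aldehyde dehydrogenase, differed by -0.3 ± 0.16 in C57 and -0.94 ± 0.16 in AKR after air. Cat, which is catalase, differed by -0.61 ± 0.16 and -0.77 ± 0.16, and Maob, a monoamine oxidase, by -0.68 ± 0.19 and -1.04 ± 0.19.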

How the data were processed

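Values were read as deposited: 1 column of log2 intensities for each of 31 arrays and 35556 probe sets, which the authors made with RMA (robust multi-array averaging), per the submitters' processing notes. The version, the settings and whether all arrays were processed together are not given in the sources used here. Biotinylated cRNA made from lung total RNA was fragmented before hybridisation, per the labels' protocols.

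The platform annotation lists 23410 probe sets, of which 21789 carry 1 symbol and 1621 several, and 12146 probe sets are unnamed. Symbols were updated through Entrez identifiers (99.6% matched). The probe set with the highest mean stood for a gene, which gave 19938 genes, of which the tested 14705 exceeded the 40th percentile on 3 arrays or more.

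A limma model with a mean for each of the 11 groups, fitted over the 31 arrays with 20 residual degrees of freedom, gave differences, moderated two-sided tests and Benjamini-Hochberg adjustment over all genes of a comparison. A gene was called, and is said to have risen or fallen, at an adjusted p under 0.05. The fit was tested on simulated data. The members, gene families, markers and alternatives were chosen with earlier results of these data known.

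Besides the 9 genes, those named are the 6 largest falls and 3 largest rises past the threshold in the other enzyme families after air in each strain, their nearest relatives, the 8 genes most alike, and list markers. Alternatives were the fit without the doubted pair, without each array, a replicate block, only the arrays compared, no filter, a filter at the 60th percentile, quantile normalization of all arrays, median centring, the mean over probe sets, array weights, and other control groups. The likeness without the doubted pair was added after the data were seen. Tools were R 4.3.3, limma 3.58.1, data.table (1.17.8), Python 3.11.15 and matplotlib 3.10.9.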

Additional observations from a re-analysis of the deposited data

Results flagged for a closer look

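The LPS difference of Akr1c14 after air was set apart because it differed between strains in the limma fit: AKR minus C57 was -2.27 ± 0.54 on the log2 scale, being -0.73 ± 0.38 in AKR and 1.54 ± 0.38 in C57. The values were known when the gene was chosen, so no p is given and the difference supports nothing by itself. The AKR and C57 arrays compared lie in different array sets, and strain and array set cannot be told apart, although each strain's own difference lies within 1 set.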

How the results depend on the processing

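Of the counts of members and median differences over the alternatives, 550 stayed within 1.5 times the count with all arrays, or within 1 pooled SD of the members' mean for a median, and 13 did not. Most of these alternatives left out 1 of the 31 arrays, usually 1 outside the comparison, which can alter only the shared spread. The 550 is therefore no measure of robustness. No result past the threshold reversed its direction. The number of members lower after smoke in C57, 0 with all arrays, became 6 without the doubted pair and 5 with array weights. All genes called there, in either direction, went from 0 to 3048 and 4620 in the same order. It ranged from 0 to 5 when single arrays were left out, the 5 coming without C57 smoke LPS 3. The number lower after air in C57, 5 with all arrays, ranged from 2 to 5, with 2 without C57 air saline 1 or C57 air LPS 1 and 3 without C57 air saline 3. The ranges were 5 to 7 for AKR after air and after smoke. The counts of all genes called when single arrays were left out are given below. With array weights, Aldh1a1 passed for AKR against C57 in room air (-0.37 ± 0.1, limma adjusted p = 0.014), 1 member in place of 0. Of the 14705 genes tested, 2560 passed there with array weights, in place of 396, so the call says nothing particular to the members.

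The median difference of the members for smoke against air with LPS in C57 was 0.13, and -0.11 with array weights. For the smoke by LPS interaction in C57 it was 0.29, and -0.19 without the doubted pair and -0.11 with array weights. For the strain by LPS interaction it was -0.042, and -0.5 with array weights, with a range of -0.38 to 0.058 when single arrays were left out (-0.38 without C57 air LPS 1 and -0.26 without AKR air saline 3). Apart from the doubted arrays, the causes were not tested. Counts of all genes called moved more. LPS against saline gave 2316 genes after air in C57 and 7718 with array weights, 2479 after air in AKR and 1485 with only the arrays compared, 4631 after smoke in AKR and 6981 with array weights, and 0 after smoke in C57, against 3048 without the doubted pair and 4620 with array weights. When single arrays were left out, the counts ranged from 1121 to 3141, 1368 to 3112, 2365 to 5023 and 0 to 1881 in that order. Among comparisons without LPS, smoke in AKR gave 5 genes, 49 without the pair and 59 with array weights. Saline in AKR gave 101, 326 without the pair, 343 with array weights, 62 with the replicate block and 0 with only the arrays compared. Saline in C57 gave 2, 16 without the pair and 1273 with array weights. AKR against C57 gave 396, 2560 with array weights and 1983 with AKR room air 3 weeks, which lies in the other array set, so that strain and set cannot be told apart there. Smoke in C57 gave 0 and, with array weights, 24.

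Whether replicate numbers pair the samples could not be told. Deviations of same-numbered LPS and saline arrays correlated between -0.773 and -0.434 in C57 after smoke, where both doubted arrays carry the number 3 and distort the deviations. In the other LPS comparisons the correlations lay between -0.117 and 0.54. With the replicate block, 5, 7 and 7 members were lower after air in C57, after air in AKR and after smoke in AKR, and 0 after smoke in C57, the same as without it.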
